A study of Homo sapiens with 2 samples.

Results

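The genes followed here are 51 genes of the interferon response and of antigen presentation: interferon receptors, JAK kinases, STAT and IRF factors, IRF2-binding proteins, SOCS inhibitors, MHC class I and antigen-processing genes, their transactivators and CD274 (PD-L1), sensors of foreign nucleic acid with their adaptors, and interferon-stimulated genes. The list goes by name and function, was drawn up with earlier results of these data known, and all 51 were found among the 20176 protein-coding genes of GENCODE release 44 on GRCh37 (hg19). A region was assigned to a gene as a promoter region when its nearest edge lay within 1 kb of the transcription starting site (TSS) of any of its transcripts, and as a gene body region when it lay elsewhere in the gene. By this rule 28 of the 12896 regions that differed between the libraries belonged to 14 of the 51 genes, and 37 genes had none.

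FLAG-SMARCA4 ChIP-seq was carried out in parental TOV21G cells (1 library) and in an EIR clone (1 library, labelled clone 3). TOV21G is an established ovarian clear cell carcinoma line with mutated *ARID1A*. The EIR (EZH2 inhibitor-resistant) clone was picked from TOV21G cells that had grown stably in GSK126, an inhibitor of the histone methyltransferase EZH2, raised in steps from 5 to 10, 15 and 20 μM. SMARCA4 (BRG1), a catalytic subunit of the SWI/SNF chromatin remodeler, carried an endogenous FLAG tag introduced by CRISPR in both libraries, each tagged line being grown from single colonies, so clone, drug selection and tagging cannot be told apart. The totals, worked out from the lists, were about 25638000 tags (aligned reads) for parental cells and 34976000 for the EIR clone, and 1 EIR tag counts as 0.733 on the parental scale. All folds below are on this scale of equal library totals. Each of the deposited lists holds regions called in one library against the other. A gene without a region may therefore be bound equally in both libraries, in neither, or differently but short of the calling threshold. With 1 library per condition no test between conditions is possible. The 95% intervals (Clopper-Pearson, from the tags) cover counting error only and do not allow for the regions having been listed because they differed. The paper reports less SMARCA4 mRNA and protein in EIR cells than in parental cells, and a general fall in SMARCA4 binding by ChIP-seq. The amount of tagged SMARCA4 in each line was not analysed here, and less protein and lower occupancy of a site cannot be told apart.

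Interferons bind surface receptors whose JAK kinases phosphorylate STAT factors, and the STAT factors, alone or with IRF9, enter the nucleus and switch on their targets. Type I and III interferons act largely through the interferon-stimulated response element (ISRE), which is also the kind of site that IRF factors read, and interferon-γ acts largely through the γ-activated site (GAS). Among the targets are *IRF1*, the SOCS genes that feed back on the kinases, antiviral genes, chemokines, and the genes that cut, transport and load peptides onto MHC class I molecules for display to T cells.

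The promoters of several of these genes carry such elements, and stretches with them are shown because they let the position of a region be set against the letters that interferon signalling reads. All are from the GRCh37 reference, written 5′ to 3′ on the strand of the gene, lie outside exons of protein-coding transcripts and are numbered from the canonical TSS. Capitals mark an ISRE-like match, GAAANNGAAA on either strand with overlapping matches joined, or for *IRF1* a GAS-like match, TTCNNNGAA. The first pair are genes with a promoter region (chr5:131826535-131826634, minus strand, bases −169 to −70 for *IRF1*, and chr16:11350120-11350219, minus strand, bases −158 to −59 for *SOCS1*).
IRF1: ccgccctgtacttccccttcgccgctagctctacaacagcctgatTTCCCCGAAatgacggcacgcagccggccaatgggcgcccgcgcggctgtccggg
SOCS1: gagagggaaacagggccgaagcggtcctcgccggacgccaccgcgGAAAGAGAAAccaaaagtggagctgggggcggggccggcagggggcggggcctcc
The stretch of *SOCS1* lies inside its parental-higher region. The stretch of *IRF1* lies outside its region, which begins at base −31, whereas the GAS-like letters begin at base −124.

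In *ISG15* the only region lies 11178 bp upstream of the canonical TSS, far from the ISRE-like letters there (chr1:948719-948818, plus strand, bases −158 to −59).
ISG15: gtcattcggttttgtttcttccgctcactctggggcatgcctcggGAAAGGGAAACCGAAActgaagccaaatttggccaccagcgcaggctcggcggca
The next stretches belong to genes with no region of either list, a subunit of MHC class I, its peptide transporter, a further class I gene, an RNA sensor and a chemokine (chr15:45003526-45003625, plus strand, bases −189 to −90 for *B2M*, chr6:32821594-32821660, minus strand, bases −179 to −113 for *TAP1*, chr6:29691011-29691082, plus strand, bases −200 to −129 for *HLA-F*, chr2:163175294-163175393, minus strand, bases −199 to −100 for *IFIH1*, and chr4:76928763-76928862, minus strand, bases −200 to −101 for *CXCL9*).
B2M: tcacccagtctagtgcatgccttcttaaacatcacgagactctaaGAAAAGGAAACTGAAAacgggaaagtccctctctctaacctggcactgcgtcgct
TAP1: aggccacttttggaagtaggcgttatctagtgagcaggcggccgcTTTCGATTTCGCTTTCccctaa
HLA-F: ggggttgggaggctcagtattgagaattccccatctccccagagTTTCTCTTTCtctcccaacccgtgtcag
IFIH1: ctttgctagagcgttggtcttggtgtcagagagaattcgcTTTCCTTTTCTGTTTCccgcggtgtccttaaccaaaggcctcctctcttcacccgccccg
CXCL9: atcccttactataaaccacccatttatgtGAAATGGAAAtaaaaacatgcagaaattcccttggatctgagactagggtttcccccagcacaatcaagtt
These show the same kind of element in promoters where no difference between parental and EIR cells was listed.

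Of the 51 genes, 11 (21.6%) had a promoter region, namely *IFNGR2*, *JAK1*, *STAT5B*, *IRF1*, *IRF2*, *IRF5*, *IRF2BP2*, *IRF2BPL*, *SOCS1*, *TBK1* and *ISG15*. All 13 of their promoter regions had more tags in parental cells than in the EIR clone. Among all protein-coding genes, 24.6% had a promoter region of either list, 23.2% a parental-higher one and 1.96% an EIR-higher one, so the share of the 51 genes lay near that of protein-coding genes as a whole. None of the 51 genes had an EIR-higher one, which at so low a share in all genes is not a result about them. A gene body region was found in 7 genes (13.7%) against 11.6% of protein-coding genes, and a region in either place in 14 (27.5%) against 30.5%. The genes with a gene body region only were *STAT3*, *NLRC5* and *CIITA*. Of the 15 gene body regions, 13 were parental-higher and 2, in *NLRC5* and *CIITA*, were EIR-higher. Of all 12896 listed regions, 10792 were parental-higher and 2104 EIR-higher, so a lean to parental cells is not particular to the 51 genes.

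**Figure D1:**
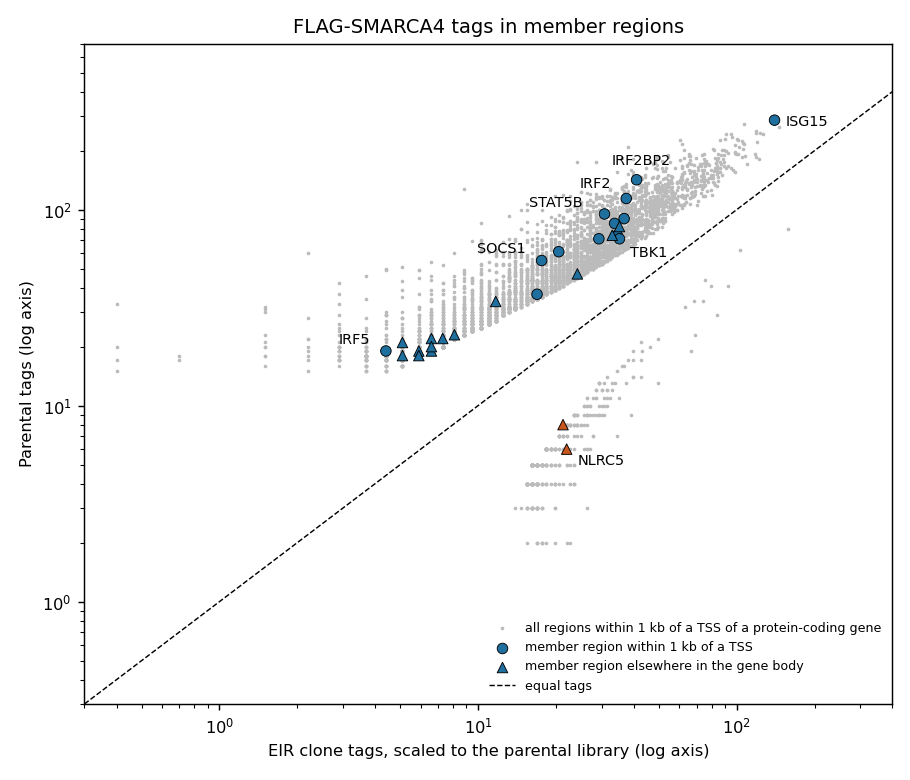
Parental tags against scaled EIR tags per region on log axes, with all promoter regions of protein-coding genes in gray and the 28 regions of the 51 genes as circles (within 1 kb of a TSS) and triangles (elsewhere in the gene body), blue where parental-higher and orange where EIR-higher. Of the 28 points, 26 lie above the line of equal tags, and the empty band along the line is where regions were not listed.

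The median fold of the 13 promoter regions was 2.52, with a range from 2.02 to 4.32, beside a median of 2.54 and quartiles of 2.15 and 3.07 for the 4668 parental-higher promoter regions of protein-coding genes. The median length was 988 bp against 752 bp, and the median density 81.8 parental tags per kb against 64.2. In the EIR clone the densities were 32.7 and 25 scaled tags per kb. All 13 passed the exact binomial test of the tags with Benjamini-Hochberg adjustment, the largest adjusted *P* value being 0.00569, as did all 28 regions, with the largest at 0.0118. This test compares these libraries only, and 100% of the listed regions pass it, so passing does not set the 28 regions apart. With the EIR library scaled 1.5 times higher, 9 of the 13 promoter regions and none of the 13 parental-higher gene body regions passed it. Of all 12896 listed regions 34.6% passed at that scaling. That share includes EIR-higher regions, which the scaling favours, and was not worked out for parental-higher regions alone. The promoter regions that no longer passed were the canonical one of *JAK1*, the upstream one of *IRF2BP2* and those of *IRF5* and *TBK1*, with adjusted *P* values of 0.107, 0.178, 0.0655 and 0.152.

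Of the receptor genes, *IFNGR2*, which encodes the signalling chain of the interferon-γ receptor, had a promoter region (chr21:34775343-34776331) from −376 to +612 bp of its canonical TSS, across exon 1 and into intron 1. It held 85 parental tags against 46 EIR tags, which scale to 33.7, a fold of 2.52 (95% confidence interval 1.74 to 3.69). The ligand-binding chain *IFNGR1* had no region nearer than 18.3 kb, the type I receptor chains *IFNAR1* and *IFNAR2* none nearer than 22.5 and 125 kb, and the type III receptor chain *IFNLR1* none nearer than 64.5 kb. *IFNAR1*, *IFNAR2* and *IFNGR2* lie close together on chromosome 21, and of these *IFNGR2* alone had a region.

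Of the JAK kinases, *JAK1*, the kinase shared by type I, II and III interferon receptors, had 9 regions, all parental-higher. The region at its canonical promoter (chr1:65431477-65432231) started 1 bp downstream of the TSS and ran through the untranslated exon 1 into intron 1, with 74 parental and 47 EIR tags (34.5 scaled, fold 2.15, 1.47 to 3.17). A second promoter region (chr1:65532737-65533663) lay 100505 bp upstream, over the TSS of the *JAK1* transcripts that start farthest from the canonical one, where noncoding transcripts also start. It had 61 parental and 28 EIR tags (20.5 scaled, fold 2.97, 1.87 to 4.83). With the higher scaling given above, the fold of the first was 1.43.

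The other 7 regions of *JAK1* lay in its gene body. With the largest count of them, 82 parental tags against 48 EIR tags (35.2 scaled, fold 2.33, 1.61 to 3.40), a region of 1834 bp in length lay 69957 bp downstream of the canonical TSS, in intron 1. A region 36062 bp upstream, within 1 kb of a TSS of the noncoding gene *LINC01359*, had 47 parental and 33 EIR tags (24.2 scaled, fold 1.94, 1.22 to 3.13). The remaining 5 were short regions of 500 bp with 19 to 23 parental tags and 5.1 to 8.1 scaled EIR tags each. Their folds of 2.85 to 4.09 rest on few tags, and the lower ends of their intervals were 1.34 to 1.68. Those 13623, 17601 and 22893 bp upstream of the canonical TSS lay outside the canonical transcript, as did the region at 36062 bp. The one at 22893 bp was also within 1 kb of a TSS of *LINC01359*.

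**Figure D2:**
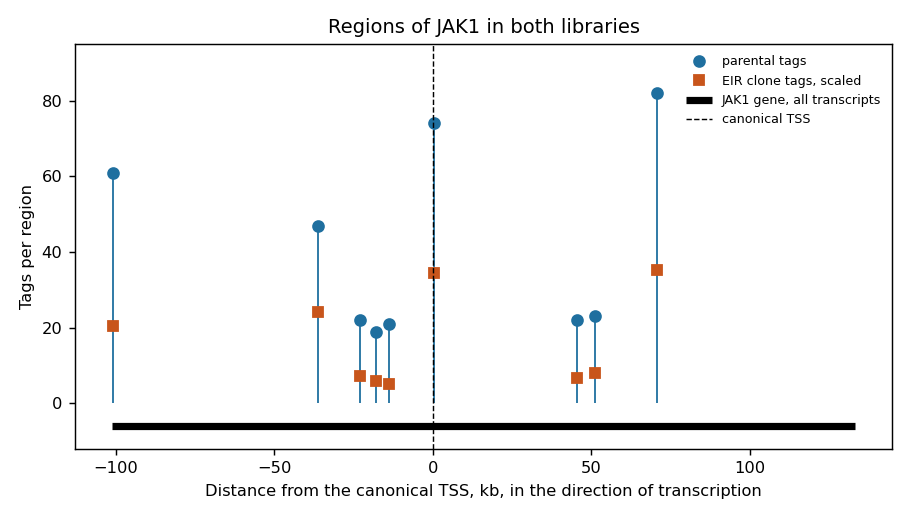
Parental tags (blue circles) and scaled EIR tags (orange squares) of the 9 *JAK1* regions against the distance of the region's centre from the canonical TSS in kb, with the extent of all *JAK1* transcripts as a black bar. In each of the 9 regions the parental value, from 19 to 82 tags, lies above the EIR value.

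As many as 9 regions in the promoters and body of a gene were found in 74 protein-coding genes (0.367%). *JAK1* spans 235 kb, and of 1393 protein-coding genes of 150 to 300 kb the median had 1 region, the 90th percentile was 3 and 21 genes had at least 9. *JAK2*, the kinase of *IFNGR2*, and *TYK2*, which pairs with JAK1 on the type I receptor, had no region nearer than 99.3 and 39.6 kb. The region nearest to *JAK2* was EIR-higher, with 5 parental tags and 16.9 scaled EIR tags.

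Of the STAT factors, *STAT5B*, which acts downstream of cytokine and growth hormone receptors, had a promoter region (chr17:40427743-40428905) from −496 to +666 bp of the TSS, over exon 1. It had 95 parental and 42 EIR tags (30.8 scaled, fold 3.09, 2.12 to 4.55). The adjacent and closely related *STAT5A* had no region of its own, and the nearest to it, at 10.7 kb, was that of *STAT5B*.

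*STAT3*, the main transducer of IL-6 family cytokines, had gene body regions only. The larger (chr17:40479986-40481520) covered exon 14 and parts of introns 13 and 14 and had 74 parental and 45 EIR tags (33.0 scaled, fold 2.24, 1.53 to 3.33). The smaller lay in intron 1 with 18 parental and 7 EIR tags (5.1 scaled, fold 3.51, 1.40 to 9.94). The first was 1253 bp from the TSS of a shorter *STAT3* transcript, just outside the promoter window. *STAT6*, *STAT4* and *STAT2* had no region nearer than 7.74, 8.87 and 80.9 kb. *STAT2*, the partner of IRF9 in the type I interferon complex, thus had none close by.

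Of the IRF factors, *IRF1*, an early interferon-γ target that turns on MHC class I genes, had a promoter region (chr5:131825082-131826496) from −31 to +1383 bp of its TSS, through exon 1 to intron 2. It held 90 parental and 50 EIR tags (36.7 scaled, fold 2.46, 1.72 to 3.54). A weaker region 41539 bp downstream, inside the annotated gene but beyond the canonical transcript, had 18 parental and 8 EIR tags (5.9 scaled, fold 3.07, 1.27 to 8.16).

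*IRF2*, which binds the same sites as IRF1 and often represses them, had a region (chr4:185393865-185395009) in intron 1, between 695 and 1839 bp downstream of the canonical TSS and 153 bp from the TSS of another transcript. It held 114 parental and 51 EIR tags (37.4 scaled, fold 3.05, 2.17 to 4.33), and at 99.7 parental tags per kb it was the densest of the 13 promoter regions. *IRF5*, a mediator of Toll-like receptor signalling, had a region of 500 bp (chr7:128579529-128580029) in intron 1, 1548 bp from the canonical TSS and 97 bp from another. With 19 parental and 6 EIR tags (4.4 scaled), its fold of 4.32 was the highest of the 13 and also the least certain, with an interval from 1.66 to 13.2. The interval of *IRF5* takes in the folds of all other promoter regions, so its place among them is not resolved by these counts.

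The blood cell factors *IRF4* and *IRF8* had no region nearer than 444 and 98.9 kb. *IRF3* and *IRF7*, which are activated by the nucleic acid sensors, had none nearer than 19.4 and 36.7 kb, and *IRF9*, the DNA-binding part of the type I interferon complex, none nearer than 13.3 kb.

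*IRF2BP2* and *IRF2BPL*, corepressor proteins related through their IRF2-binding family, had promoter and gene body regions. At *IRF2BP2* the main region (chr1:234744709-234746299) ran from −375 to +1215 bp of the TSS, over exon 1, with 142 parental and 56 EIR tags (41.0 scaled, fold 3.46, 2.52 to 4.80). A second region just upstream (chr1:234746359-234746859) had 37 parental and 23 EIR tags (16.9 scaled, fold 2.19, 1.27 to 3.87), and the gene body region, in the untranslated part of exon 2, had 19 and 9 (6.6 scaled, fold 2.88, 1.24 to 7.23). All 3 were higher in parental cells, and the upstream pair lie so close together that they share a promoter.

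At *IRF2BPL* the promoter region (chr14:77494491-77495243) ran from −192 to +560 bp of the TSS and had 71 parental and 40 EIR tags (29.3 scaled, fold 2.42, 1.62 to 3.66). Its gene body region, in exon 1 and over coding sequence, had 34 and 16 (11.7 scaled, fold 2.90, 1.56 to 5.62). The family gene *IRF2BP1* had no region nearer than 15.4 kb.

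Of the SOCS genes, *SOCS1*, an interferon-induced inhibitor of JAK kinases, had a promoter region (chr16:11349353-11350445) from −384 to +708 bp of its TSS, over the untranslated exon 1, with the ISRE-like letters shown above inside it. It had 55 parental and 24 EIR tags (17.6 scaled, fold 3.13, 1.90 to 5.28). *SOCS3*, the inhibitor best known for IL-6 family signalling, and *SOCS2*, known for growth hormone signalling, had no region nearer than 18.2 and 167 kb.

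Of the sensors and adaptors, *TBK1*, the kinase that activates IRF3, had a promoter region (chr12:64845701-64846591) from −199 to +691 bp of the TSS. It held 71 parental and 48 EIR tags (35.2 scaled), and its fold of 2.02 (1.38 to 2.97) was the lowest of the 13. The RNA sensors *DDX58* (RIG-I) and *IFIH1* (MDA5) had no region nearer than 105 and 194 kb, their adaptor *MAVS* none nearer than 26.2 kb, and the DNA sensor *CGAS* none nearer than 128 kb.

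Of the interferon-stimulated genes, *ISG15*, which encodes a ubiquitin-like protein, had the promoter region with the most tags, 286 parental against 191 EIR tags (140.0 scaled, fold 2.04, 1.69 to 2.47). This region of 3174 bp (chr1:934525-937699) covers the TSS of a long *ISG15* transcript and also the promoter of *HES4*, and its near edge is 11178 bp upstream of the canonical *ISG15* TSS. It therefore meets the rule without lying at the promoter from which *ISG15* is canonically transcribed. The antiviral genes *OAS1* and *MX1* had no region nearer than 149 and 198 kb, and the chemokines *CXCL9* and *CXCL10*, which draw T cells, none nearer than 206 and 190.0 kb. The region nearest to *OAS1* was EIR-higher.

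**Figure D3:**
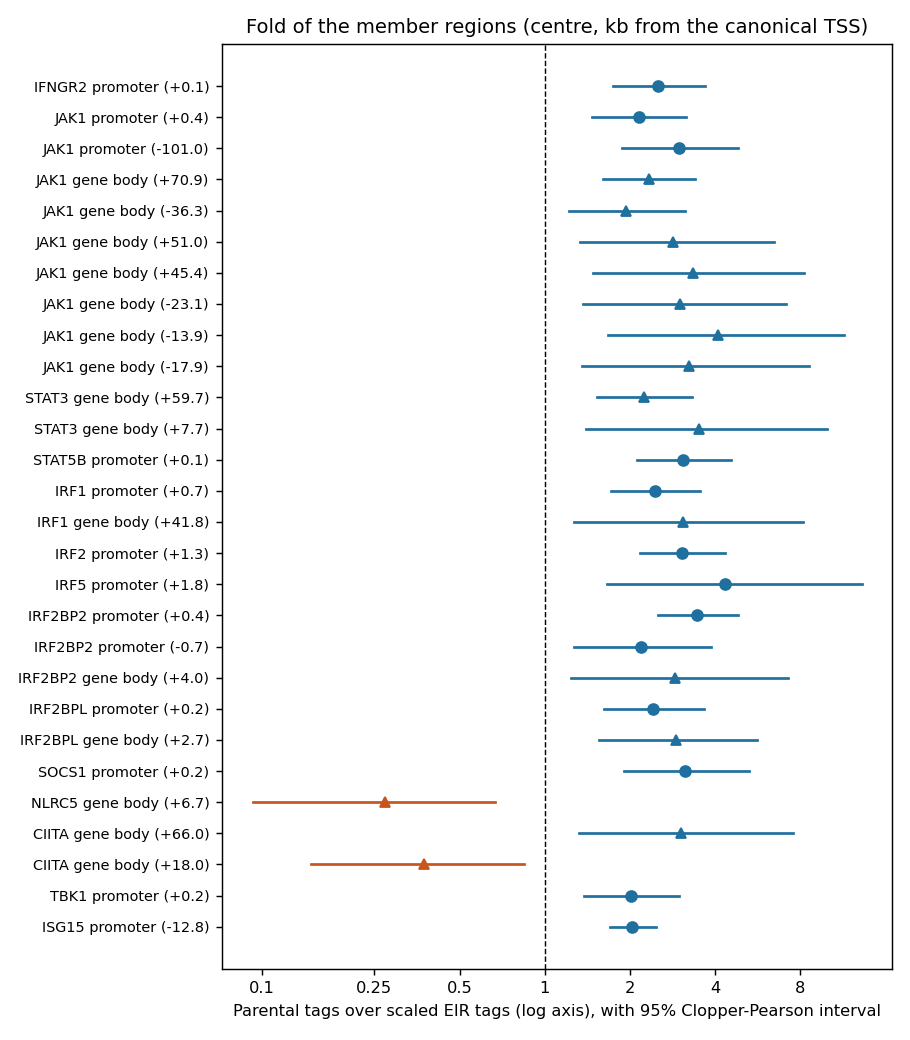
Parental tags over scaled EIR tags for the 28 regions on a log axis, with 95% Clopper-Pearson intervals, circles for promoter regions and triangles for gene body regions, blue for parental-higher and orange for EIR-higher, and the distance of the region's centre from the canonical TSS in kb after each name. The 26 parental-higher regions lie to the right of 1 and the regions of *NLRC5* and *CIITA* that are EIR-higher to the left, and most intervals overlap each other.

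None of the 10 genes of MHC class I and antigen processing had a region of either list. The heavy-chain genes *HLA-B*, *HLA-C*, *HLA-E* and *HLA-F* were 35.8, 113, 126 and 240 kb from the nearest region. For *B2M*, the light chain, on chromosome 15, the distance was 175 kb. For *TAP1* and *TAP2*, the peptide transporter, it was 115 and 130 kb, for *TAPBP* (tapasin), which holds the transporter to the class I molecule, 113 kb, and for *PSMB8* and *PSMB9*, subunits of the immunoproteasome, 124 and 113 kb. With 24.6% of protein-coding genes having a promoter region, 10 genes are too few to set this group apart.

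The MHC interval itself was not empty of differences. Between *HLA-F* and *TAPBP* (chr6:29690552-33282061, 3.59 Mb, holding 9 of the 51 genes) there were 21 regions, 16 parental-higher and 5 EIR-higher, or 5.85 regions per Mb beside 4.54 genome-wide and 3.60 on chromosome 6. The number of genes per Mb was not taken into account, so these rates do not set the interval apart. *TAP2*, *PSMB8*, *TAP1* and *PSMB9* lie in a stretch of 792 kb between neighbouring regions. The region nearest to these 4 genes was an EIR-higher one (chr6:32936899-32937399) with 11 parental and 39 EIR tags (28.6 scaled, fold 2.60 in favour of the EIR clone, 1.31 to 5.63), at the promoters of *BRD2* and *HLA-DMA*.

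The transactivators gave the only EIR-higher regions of the 51 genes, both in gene bodies. *NLRC5*, the transactivator of MHC class I genes, had a region of 500 bp in intron 1 (chr16:57029901-57030401), 6432 bp downstream of its canonical TSS. It held 6 parental tags against 30 EIR tags (22 scaled), a fold of 3.67 in favour of the EIR clone (1.50 to 10.8). *CIITA*, the transactivator of MHC class II genes, had an EIR-higher region over exon 2 (chr16:10988804-10989304) with 8 parental and 29 EIR tags (21.3 scaled, fold 2.66, 1.19 to 6.73). Its HOMER *P* value of 9.40e-05 lay close to the largest in the lists, 9.99e-05. With the EIR library scaled 1.5 times lower, neither EIR-higher region passed the exact binomial test, with adjusted *P* values of 0.0551 for *NLRC5* and 0.166 for *CIITA*. At that scaling 88.7% of all 12896 listed regions passed. That share includes parental-higher regions, which the scaling favours, and was not worked out for EIR-higher regions alone, so failing does not set these regions apart.

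At the far end of *CIITA* a parental-higher region (chr16:11036798-11037298) had 20 parental and 9 EIR tags (6.6 scaled, fold 3.03, 1.32 to 7.56), but it lay beyond the canonical transcript and within 1 kb of a TSS of *DEXI*. The regions of *CIITA* thus went in opposite directions, on few tags each. *CD274*, the immune checkpoint ligand, had no region nearer than 99.9 kb.

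**Figure D4:**
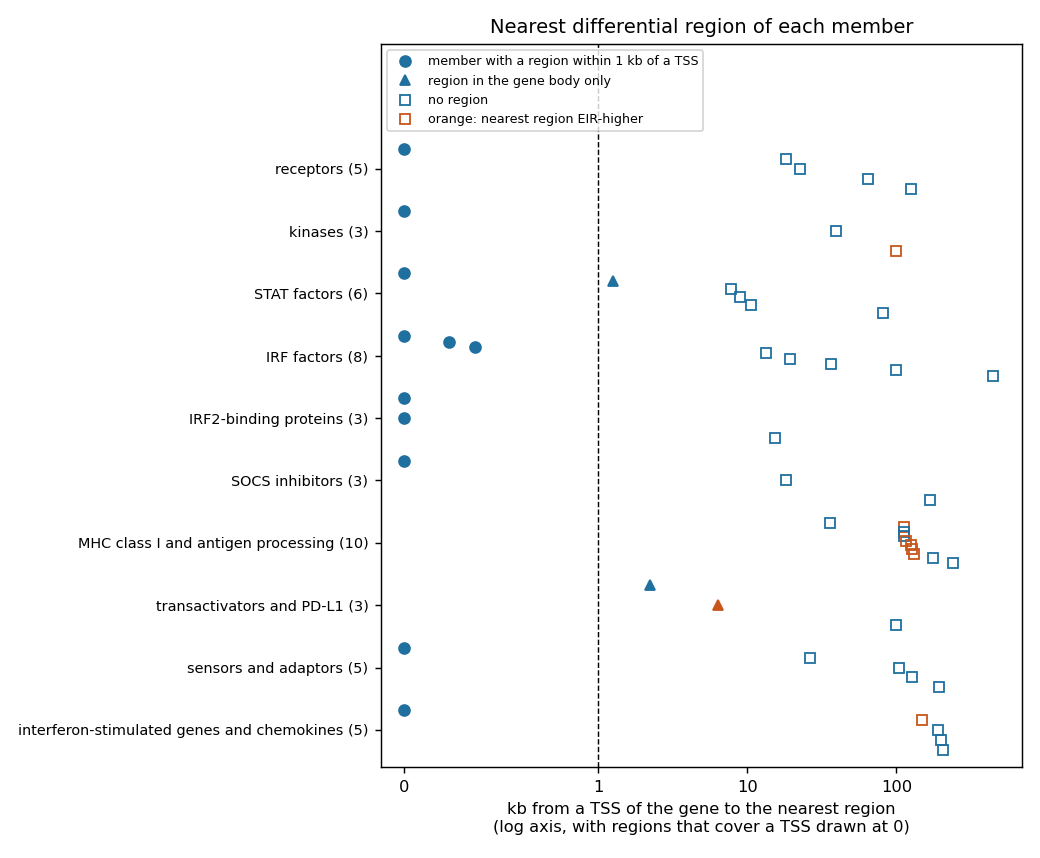
Distance in kb (log axis) from a TSS of each of the 51 genes to the nearest region, by role with the number of genes in parentheses, with filled circles for genes with a promoter region, triangles for genes with a gene body region only and open squares for genes with none, orange where the nearest region is EIR-higher. The dashed line marks the 1 kb window, and the open squares run from 7.74 kb for *STAT6* to 444 kb for *IRF4*.

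The assignment turned little on where the window was set. The promoter regions farthest from a TSS were the upstream region of *IRF2BP2* at 435 bp, that of *IRF2* at 153 bp and that of *IRF5* at 97 bp, and the other 10 covered a TSS. Just outside the window were *STAT3* at 1253 bp, the exon 2 region of *IRF2BP2* at 1628 bp and the downstream region of *CIITA* at 2222 bp. For the 37 genes without a region the median distance was 105 kb, 19 were over 100 kb away, and the nearest region was EIR-higher for 7. The 51 genes were shorter than protein-coding genes as a whole (median 20.1 against 27.2 kb) but had more distinct TSSs (11 against 5), which widens the ground the rule covers.

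**Figure D5:**
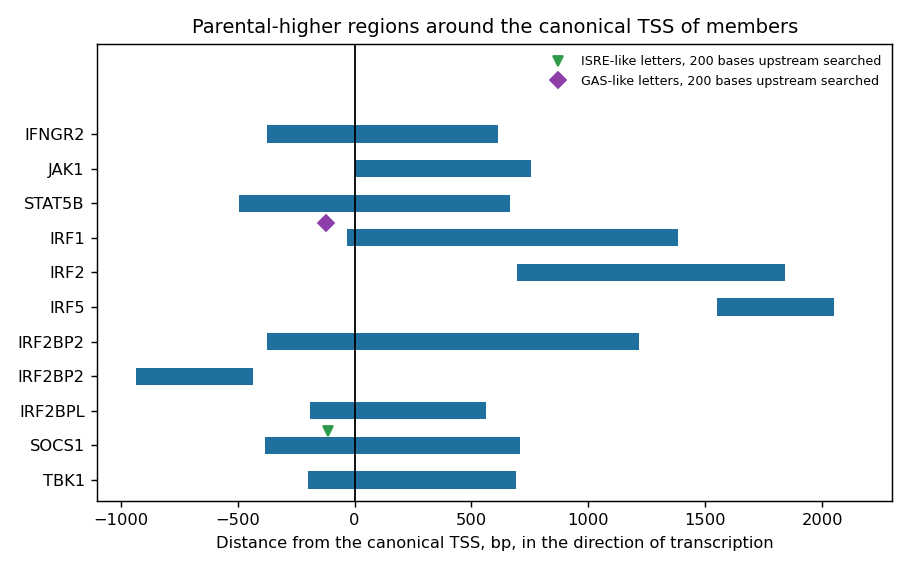
Extent of the parental-higher regions of 10 genes in bp from the canonical TSS in the direction of transcription, for the 11 promoter regions that lie within 2 kb of it, with ISRE-like (triangle) and GAS-like (diamond) letters in the 200 bases upstream. Regions of *JAK1*, *IRF2* and *IRF5* lie wholly downstream of the canonical TSS, that of *JAK1* from 1 bp on. The GAS-like letters of *IRF1* lie just outside its region.

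The regions differed in sequence make-up by place. Promoter regions of the 51 genes had a median GC content of 72.0% (59.9 to 76.8%) and a median CpG observed over expected of 0.882, beside 70.9% and 0.846 for parental-higher promoter regions of protein-coding genes. The *IRF5* region, with a CpG ratio of 0.111, did not have this make-up. Gene body regions of the 51 genes had a median GC content of 46.3% and a CpG ratio of 0.223, beside 43.5% and 0.217 for all parental-higher regions in the bodies of protein-coding genes. The sets differ in that the first includes the EIR-higher regions of *NLRC5* and *CIITA*. Exceptions among the gene body regions of the 51 genes were the *JAK1* region near *LINC01359*, with a GC content of 68.3% and a CpG ratio of 0.979, and the gene body region of *IRF2BPL*, with 72.0% and 0.828.

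The promoters of the 51 genes were searched for both motifs on both strands, from 250 bases before to 50 after the canonical TSS on GRCh37. The ISRE-like letters GAAANNGAAA were in 14 (27.5%) of the 51, against 3.29% of 19862 protein-coding genes, and the GAS-like letters TTCNNNGAA in 11 (21.6%) against 6.50%. The motifs can overlap each other, and a match is a description of letters and not a bound site. In the RefSeq promoter table (GRCh38.p14, windows of the same 300 bases), which had 42 of the genes, 13 (31.0%) had the ISRE-like letters in a promoter against 4.38% of all genes of the table (3.58% of its promoters), and 9 (21.4%) the GAS-like letters against 9.38% of genes (7.66% of promoters).

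On GRCh37 the genes with ISRE-like letters were *B2M*, *CD274*, *CIITA*, *CXCL9*, *CXCL10*, *HLA-F*, *IFIH1*, *ISG15*, *NLRC5*, *PSMB8*, *SOCS1*, *TAP1*, *TAP2* and *TAPBP*. Of these 14, *SOCS1* and *ISG15* had a promoter region, and of the 37 others 9 had. The letters were searched at the canonical TSS only, whereas a promoter region could lie at any TSS of the gene. That of *ISG15* lay 11178 bp upstream of the canonical TSS, away from the letters. Among protein-coding genes, 15.0% of those with the letters and 25.2% of those without had a promoter region. For the GAS-like letters, which were at *CD274*, *IFNLR1*, *IRF1*, *IRF2*, *IRF2BP1*, *IRF7*, *IRF8*, *IRF9*, *OAS1*, *PSMB8* and *SOCS3*, *IRF1* and *IRF2* of 11 genes had a promoter region and 9 of the 40 others, against 14.7% and 25.6% among protein-coding genes. GC content was compared by the presence of a region and not of the letters. The median was 71.7% in promoters of protein-coding genes with a region and 61.3% in those without. Within the 51 genes it was 73.7% against 62.8%. Its part in the shares was not tested.

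Other genes of the same pathways were counted from a list of 117. Of these 21 (17.9%) had a promoter region, 19 (16.2%) parental-higher and 2 (1.71%) EIR-higher, beside the 24.6%, 23.2% and 1.96% of protein-coding genes. Of 14 inhibitors of JAK-STAT signalling 8 (57.1%) had one, all parental-higher, namely *SOCS4*, *SOCS5*, *SOCS6*, *SOCS7*, *PIAS2*, *PIAS4*, *PTPN2* and *PTPN11*, at a median fold of 2.36. Of 50 interferon-stimulated genes 5 (10.0%) had one (*ADAR*, *IFIT2*, *IFIT3*, *IFIT5* and *OASL*), of 30 genes of antigen processing and the MHC 6 (*CREB1*, *NFYA*, *NFYB*, *PSME2*, *MICA* and *HLA-DMA*), of 14 sensors, adaptors and kinases *TRAF3* and *TRAF6*, and of 6 interferon genes and 3 further receptor and JAK-STAT genes none. The share of the inhibitors is the highest of these small groups and was not tested. Regions of *SOCS4*, *SOCS5*, *PIAS2* and *PTPN11* also lay within 1 kb of a TSS of *WDHD1*, *LINC01118*, *KATNAL2* and *RPL6*, in that order.

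The highest of these folds was at *TRAF3*, an adaptor of the sensor pathways, with 209 parental and 52 EIR tags (38.1 scaled, fold 5.48, 4.03 to 7.58). *NFYB*, a subunit of the NF-Y factor that binds MHC promoters, had 159 and 53 (38.9 scaled, fold 4.09, 2.98 to 5.70). Both are named for their high fold. The antiviral genes *IFIT3*, *IFIT2* and *IFIT5* followed, with 38, 17 and 21 parental against 10.3, 5.1 and 6.6 scaled EIR tags. Their folds were 3.70 (1.96 to 7.40), 3.31 (1.31 to 9.45) and 3.18 (1.40 to 7.89). The region of *IFIT5* also lay within 1 kb of a TSS of *LIPA*. These IFIT genes neighbour each other on chromosome 10, which held 1640 (12.7%) of all regions, and the part of the chromosome in their folds was not tested. The EIR-higher promoter regions were those of *TRAF6*, with 5 parental and 25 EIR tags (18.3 scaled, fold 3.67, 1.38 to 12.3) in a region also at a TSS of *RAG1*, and of *HLA-DMA*, given above.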

How the data were processed

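The deposited data were lists of FLAG-SMARCA4 ChIP-seq regions for 1 parental and 1 EIR library. The authors aligned 75 bp single-end reads to hg19 with bowtie 0.12.9 and ran HOMER in histone style with each library in turn as control, at an FDR under 5%. Both deposited lists give the parental tags of each region as a count. The EIR tags in both are a signal, scaled by the authors to the parental total. The deposited fold is the ratio of the tags of a library to those of its control, and the deposited p-value is HOMER's Poisson p-value. A column headed region size, whose values lie between 0 and 1, was not used.

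From these, whole EIR tags were recovered from steps of 0.733 (99.4% of 173 distinct scaled values of at least 5 were whole multiples within 0.05 tags), regions were joined to the TSSs of GENCODE release 44, and exact Clopper-Pearson intervals and two-sided exact binomial tests with Benjamini-Hochberg adjustment over 12896 regions were computed. No comparison of conditions was tested. Scripts were tested on simulated data. Every one of the 51 genes is named, and of the other pathway genes those with an EIR-higher promoter region and the 5 largest folds are given with values. The 51 genes and the lists were chosen with earlier results of these data known. Alternatives were minimum folds of 2 and 4, a p-value of at most 1e-06, windows of 500 bp and 5 kb, distance from region centres, gene 5′ ends, a minimum overlap with the gene body, 1 tag added to each library, and the EIR library scaled 1.5 times up or down. Versions were Python 3.11.15, scipy 1.17.1, pandas 2.3.3, numpy 2.4.6 and matplotlib 3.10.9. A promoter stretch of *CIITA* is not reported here.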

Additional observations from a re-analysis of the deposited data

How the results depend on the processing

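No paired analysis was possible because each condition has 1 library. The alternatives did not put the direction of a region to a test. Filters and windows only drop or add listed regions. Scaling the EIR library 1.5 times up or down could not reverse a region either, because all folds were above 1.5. The lowest were 1.94 in favour of parental cells, at *JAK1*, and 2.66 in favour of the EIR clone, at *CIITA*. The 11 genes with a parental-higher promoter region were the same 11 at a minimum fold of 2, a HOMER *P* value of at most 1e-06, a window of 500 bp and distance from region centres. There were 13 at 5 kb (*STAT3* and *CIITA* added), 8 with the 5′ end of the gene only (*IRF1*, *IRF5* and *STAT5B* lost) and 9 with the EIR library scaled 1.5 times higher and a Poisson *P* value of at most 1e-04 kept (*TBK1* and *IRF2BPL* lost), and at a minimum fold of 4 only 1 remained, *IRF5*. EIR-higher promoter regions numbered 0 under the 8 alternatives, most of which can only remove regions while the window of 5 kb can add them. Genes with a gene body region fell from 7 to 1 at a minimum fold of 4 and to 3 at a *P* value of at most 1e-06, because fewer regions entered. Other pathway genes with a promoter region fell from 21 to 2 and 12 at these settings. The median fold of 2.52 became 1.68 with the EIR library scaled 1.5 times higher and 3.78 with it scaled 1.5 times lower, by construction.

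Under the higher scaling, 9 of the 13 promoter regions passed the binomial test with an adjusted *P* value under 0.05. This is a different criterion from the Poisson one. Of all regions of both lists, EIR-higher ones included, 34.6% passed, and 17 of the 28 regions no longer passed. Of the 9 *JAK1* regions only the far upstream promoter region still passed, and *IRF2BPL* passed at its promoter where *IRF5* did not. Under the lower scaling the EIR-higher regions of *NLRC5* and *CIITA* no longer passed, whereas 88.7% of all regions of both lists did, parental-higher ones included. How SMARCA4 occupancy as a whole compares between the lines is not fixed by total tags, and the lists hold no unchanged regions to scale on. Depth limits the short regions: the parental-higher ones with under 25 parental tags have intervals that reach down to 1.24 to 1.68.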
